A study of Mus musculus with 22 samples.

Results

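Extraocular muscle (EOM, the small striated muscles that turn the eye) from SJL mice was compared with EOM from Balb mice, both 12 months old. The comparison rests on 4 of the 22 arrays of the study, 2 for SJL (replicates 1 and 3) and 2 for Balb (replicates 1 and 2), selected by the strain, tissue and age in their labels. The remaining arrays hold EOM at 10 months and leg muscle at 10 and 12 months from the same strains, with 3 arrays in each group. The labels name no treatment, substrain, sex or number of animals behind an array, and any p-value is set against differences among arrays that may be technical in part. SJL is a long-established inbred strain known to carry a mutation in dysferlin, a membrane-repair protein of muscle, and Balb is an inbred strain without it. The strains also differ at many other loci, and these cannot be told apart from dysferlin here. Dysf itself, and Myh13, the myosin particular to EOM, were not analysed here.

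EOM differs from limb muscle in its developmental origin and its unusually wide range of fibres, from fast twitch fibres to slow and multiply innervated ones. Slow fibres are built with their own set of sarcomere proteins, among them a slow myosin heavy chain, ventricular-type myosin light chains and slow troponins. The muscles lie in the orbit beside the conjunctiva, the cornea and the tear glands, whose epithelia are rich in keratins, mucins and antibacterial proteins. In dysferlin-deficient limb muscle, fibre loss with macrophage entry is the usual pathology, and EOM is known as a muscle that many dystrophies spare.

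Each array reported an intensity for 12488 probe sets, of which 12422 were not controls and were tested. The median intensity was 459 and 491 on the SJL arrays, against 562 and 522 on the Balb arrays, although the trimmed mean was nearly the same on each array. Ratios of 3 prime to 5 prime signal for Actb, a sign of RNA integrity, were 1.93 and 1.64 in SJL and 1.34 and 1.46 in Balb. The ratio reached 5.05 to 53.7 on 4 arrays outside the comparison, the replicate 1 arrays of the 10-month groups. They enter the estimate of the spread, and 2 of them are EOM arrays that also enter the 10-month differences and the test of the ages. For Gapdh the ratios were 1.41 and 0.87 in SJL and 0.83 and 0.73 in Balb. In EOM at 10 months they were 6.71 and 4.66 on SJL replicates 2 and 3, beside 1.14 and 1.54 in Balb. Where arrays with high ratios were left out below, the 4 chosen by Actb are meant, so those SJL arrays stayed in.

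SJL EOM differed from Balb EOM at 57 probe sets, 0.459% of those tested, by limma with Benjamini-Hochberg adjustment at 0.05. Of these, 15 (0.121%) were higher and 42 (0.338%) lower in SJL, and they named 44 genes. The named lower genes with the largest differences were Pdxdc1, Gbp2b, H2-Ea, Alox12e and Krt6a, and many of the others were keratins and other products of surface epithelium. Phkg1, Thumpd1, D2hgdh and H2-K1 had the largest positive differences, beside a further probe set of Pdxdc1. At an unadjusted p under 0.05 there were 845 probe sets (6.8%). In all 57 the SJL and Balb arrays did not overlap, but with 2 arrays a side that was also true of many others, with SJL above Balb at 17.8% of all probe sets and below at 25.6%. An exact permutation test of 2 arrays against 2 cannot give a p below 0.333, so the calls depend on limma's model of the spread. In the main fit that spread was taken from all 22 arrays. A fit on the 10 EOM arrays alone called 19, and one without the 4 arrays with high ratios called 248, of which 101 (0.813%) were higher and 147 (1.18%) lower.

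**Figure D1:**
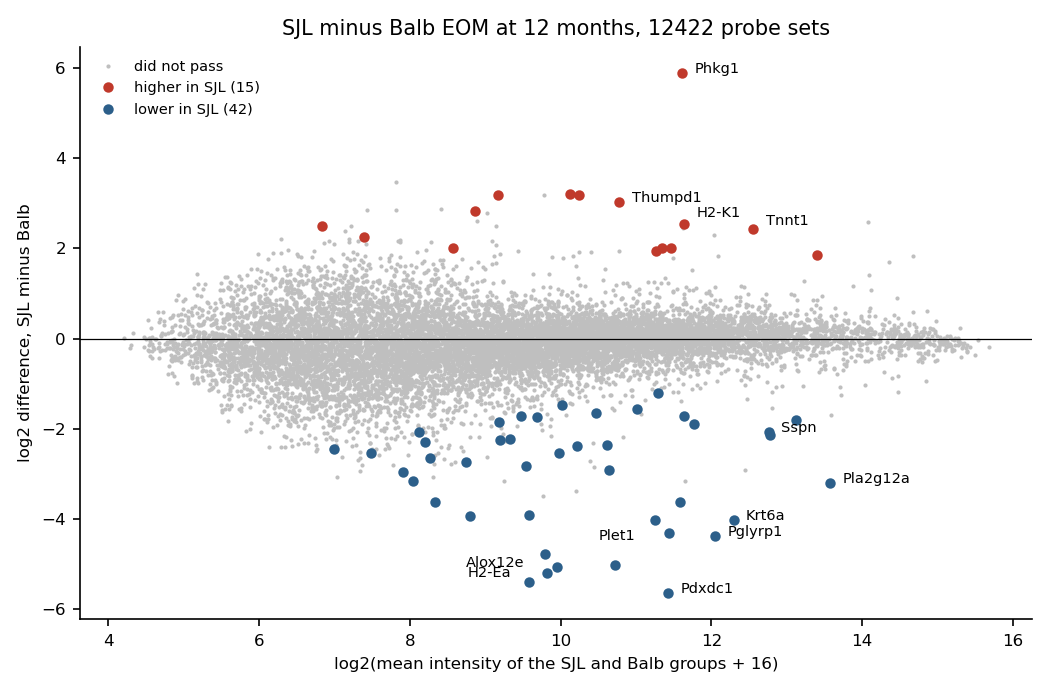
Log2 difference between the strains, SJL minus Balb, in EOM at 12 months (vertical axis) against log2 of the mean intensity plus 16 (horizontal axis) for each of 12422 probe sets. The 15 that were higher in SJL are red and the 42 that were lower are blue; Phkg1 lies far above the rest and a group with Krt6a, Pglyrp1, Plet1 and Alox12e lies at a difference of -4 or beyond.

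Calls depended on single arrays. Leaving out SJL replicate 1 gave 37 calls, SJL replicate 3 gave 36, Balb replicate 1 gave 32 and Balb replicate 2 gave 24. Only 17 of the 57 probe sets passed each time. They named Pdxdc1, H2-Ea, Alox12e, Krt6a, Pglyrp1, Pla2g12a, 6430706D22Rik, Abcd3, Sspn, Gcsh, Tnnt1, H2-K1, Thumpd1 and Phkg1. Median centring of the arrays, which moved all differences up by 0.18, gave 21 higher and 32 lower, and quantile normalization gave 18 and 30. The excess of lower calls was thus smaller under both.

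The samples read as skeletal muscle. Ckmt2, the mitochondrial creatine kinase of sarcomeres, read 37059.6 and 45693 in SJL EOM, against 53005 and 41759.5 in Balb EOM. Among 10 genes of muscle identity 0 passed by limma in either direction, and 0 had a p below 0.05 before adjustment. The median log2 difference of the list was -0.22, beside -0.05 over 8251 genes. Of 10 homeobox cluster genes measured, which mark position along the body and limb, 6 read lower on each of the 4 EOM arrays than on each of the 6 leg arrays of that age (Hoxa5, Hoxa10, Hoxa11, Hoxc9, Hoxd8 and Hoxd9). The other genes, Hoxa7, Hoxa9, Hoxc6 and Hoxc8, overlapped with leg, as with Hoxc6 at 441 and 86.2 in Balb EOM beside 143 to 335 in Balb leg. The share of all probe sets with EOM wholly below leg was not counted, so the 6 of 10 has no background beside it. Hoxd9 read 52.5 and 79.6 in SJL EOM and 81.0 and 62.0 in Balb EOM, while leg arrays at the same age read 863.8 to 1366. Ckmt2, Foxc1 and the homeobox genes given with values or as examples were chosen after their values were seen. Foxc1, a transcription factor of the tissue around the eye, showed the reverse, with 126 and 159 in SJL EOM and 211 and 208 in Balb EOM beside 7.0 to 76.4 in leg. Between the strains, 0 of 18 such position genes passed by limma and 1 had an unadjusted p under 0.05.

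Genes of surface epithelium were the list with the most genes lower in SJL EOM. Like the other lists, theirs was written with earlier results of these data known. The counts below thus describe the list and are not an independent test of it. Of 31 genes measured on a list of epithelium and gland genes, 5 were lower and 0 higher by limma, beside 0.376% lower and 0.0727% higher over all genes. At an unadjusted p under 0.05 there were 13 lower and 1 higher, and the median log2 difference was -1.05. The summed intensity of the list was 19206 and 18633 in SJL, against 53732 and 69891 in Balb. Both SJL sums lay far below both Balb sums. In whole tissue, fewer epithelial cells and less RNA per cell cannot be told apart.

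Krt6a, a keratin of stratified epithelia, read 441 and 649 in SJL EOM, against 6245 and 12700.5 in Balb EOM. The log2 difference was -4.02 (SE 0.38, adjusted p = 1.5e-05, limma). A second Krt6a probe set read 79.1 and 85.6 in SJL, against 2586 and 3914 in Balb (log2 difference -5.02, SE 0.57). With both probe sets each SJL array lay far below each Balb array, and both calls passed without any one of the 4 arrays.

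Pglyrp1, a peptidoglycan-binding antibacterial protein, read 268 and 492 in SJL, against 6265 and 9868 in Balb (log2 difference -4.38, SE 0.63, adjusted p = 0.00133). A second Pglyrp1 probe set had -4.03 (adjusted p = 0.0153), a call lost without each of the 4 arrays (0.0596 to 0.283). Plet1, a surface glycoprotein of epithelial progenitors, read 244 and 222 in SJL, against 3367 and 7215 in Balb (-4.32, SE 0.69, adjusted p = 0.00363). Alox12e, an epidermal lipoxygenase, read 25.3 and 32.4 in SJL, against 681 and 3171 in Balb (-5.06, SE 0.53, adjusted p = 3.87e-05). At all 3 genes both SJL arrays lay far below both Balb arrays, and Balb replicate 2 read above Balb replicate 1. The second probe set of Alox12e gave -2.92 (adjusted p = 0.0389), a call lost without SJL replicate 1 (0.134), SJL replicate 3 (0.227) or Balb replicate 2 (0.495). Plet1 missed without Balb replicate 2 (adjusted p = 0.126).

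Other genes of the ocular surface and of glandular or stratified epithelia were also lower. Aldh3a1, an enzyme that the corneal epithelium makes in bulk, read 486 and 310 in SJL, against 2889 and 8531 in Balb (-3.62, SE 0.60, adjusted p = 0.00496). A second, dimmer Aldh3a1 probe set gave -0.68 (adjusted p = 0.9) and did not pass. Krt7, a keratin of simple and ductal epithelium, read 54.7 and 76.4 in SJL, against 655 and 2203 in Balb (-3.92, SE 0.60, adjusted p = 0.00226). Muc5ac, the gel-forming mucin of goblet cells, read 34.1 and 28.9 in SJL, against 242 and 685 in Balb (-3.16, adjusted p = 0.0488). Elf3, an epithelial transcription factor, was lower by a log2 difference of -2.82 (adjusted p = 0.0264), and Alox15, a second lipoxygenase, by -2.73 (adjusted p = 0.00414). Asprv1, a protease of stratified epithelium, was lower by -2.35 (adjusted p = 0.00179). Without Balb replicate 2 all 6 missed, at an adjusted p = 0.195 for Aldh3a1, 0.0997 for Krt7, 0.516 for Muc5ac, 0.434 for Elf3, 0.0938 for Alox15 and 0.0829 for Asprv1. Without SJL replicate 3, 4 of them missed (Aldh3a1 0.0745, Muc5ac 0.215, Elf3 0.0745 and Alox15 0.059). Elf3 and Muc5ac missed without each of the 4 arrays, also at 0.269 and 0.22 without SJL replicate 1 and 0.0501 and 0.0596 without Balb replicate 1.

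**Figure D2:**
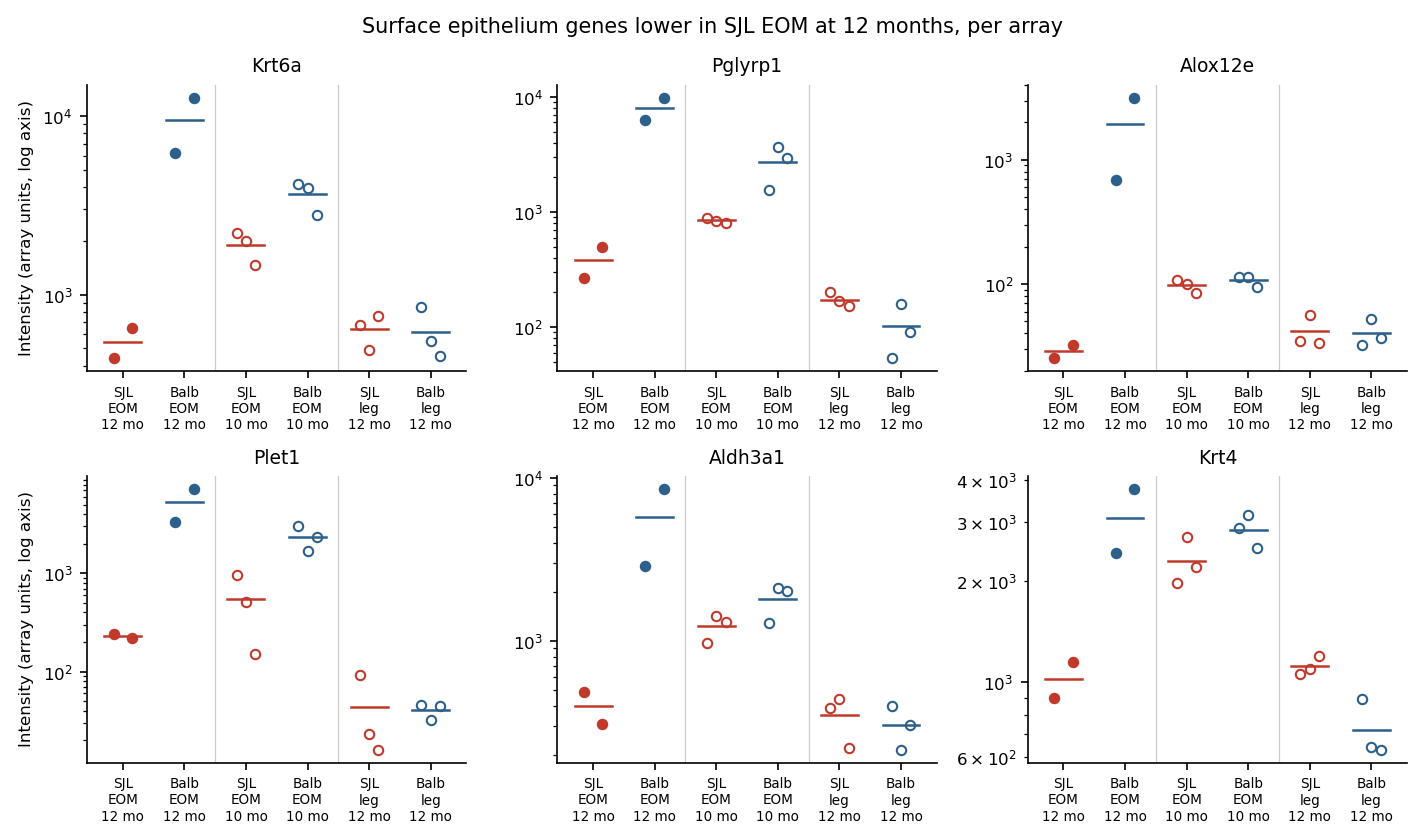
Intensity (log axis) of 6 genes lower in SJL EOM, on each array of SJL and Balb EOM at 12 months (filled points), EOM at 10 months and leg at 12 months (open points), with a bar at each group's mean. At 12 months the 2 SJL EOM arrays sit below both Balb EOM arrays in every panel, while at 10 months the strains lie closer, and Alox12e, Aldh3a1 and Krt4 overlap.

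Keratins of both classes took part, and 4 further keratin genes, chosen after their values were seen, passed. Krt4 (-1.56, adjusted p = 0.0129) and Krt6b (-1.90, adjusted p = 0.00124) belong, with Krt6a and Krt7, to the type II keratins of chromosome 15. Krt17 (-2.65, adjusted p = 0.0495) and Krt19 (-2.53, adjusted p = 0.00798) are type I keratins of chromosome 11. Krt6b kept clear levels in both strains, with 1401 and 1478 in SJL and 4382 and 6671 in Balb. Leg held such levels too. Krt6b read 1015 to 1061 in SJL leg and 1222 to 1427 in Balb leg at 12 months. At 10 months it read 2984 to 4089 in SJL leg and 3030 to 3422 in Balb leg. Krt4 read 1058 to 1200 in SJL leg and 629 to 891 in Balb leg at 12 months. At 10 months it read 3317.5 to 4380 in SJL leg and 2233 to 3607 in Balb leg. The source of these leg signals was not tested. The brighter Krt19 probe set read 327 and 305 in SJL, against 1850 and 3031 in Balb, with a difference of -2.84 that did not pass (adjusted p = 0.0818). Other probe sets of Krt4 (0.30) and Krt17 (-1.73 and 0.09) did not pass either. Without Balb replicate 2 all 4 missed, at an adjusted p = 0.339 for Krt4, 0.0535 for Krt6b, 0.414 for Krt17 and 0.0981 for Krt19. Without SJL replicate 1, 3 missed (0.185 for Krt4, 0.302 for Krt17 and 0.0769 for Krt19). Krt17 and Krt19 also missed without SJL replicate 3 (0.174 and 0.0745) and without Balb replicate 1 (0.195 and 0.074).

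Not every epithelial gene was called lower, although 27 of the 31 on the list had a negative difference. Both SJL arrays lay below both Balb arrays at 21 of them and above at 1, beside 25.6% and 17.8% of all probe sets. Cdh1, the adhesion protein that joins epithelial cells, read 1053 and 1219 in SJL, against 1188 and 1249 in Balb (-0.10, adjusted p = 1). Krt14 and Krt15, keratins of basal cells, read 57.2 and 59.7 for Krt14 in SJL, against 86.7 and 205 in Balb, and 18.6 and 19.1 for Krt15 in SJL, against 22.1 and 20.1 in Balb. Neither passed, and Cdh1, Krt14, Krt15 and Bpifa2 were chosen after their values were seen. Among products of tear and salivary glands, Bpifa2 read 7576 and 4961 in SJL, against 13674 and 11869 in Balb (-1.05, adjusted p = 0.864), and Klk1, a kallikrein, ran the other way. A dim Klk1 probe set, with 90.5 and 272 in SJL and 14.8 and 15.4 in Balb, was higher (2.49, SE 0.52, adjusted p = 0.0389). A brighter one, with 1264 and 492 in SJL and 246 and 106 in Balb, had 2.17 and did not pass (adjusted p = 0.232). The Klk1 call was lost without SJL replicate 3 (adjusted p = 0.347), Balb replicate 1 (0.221) or Balb replicate 2 (0.283).

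The strain difference in these genes was unequal at the 2 ages for Alox12e and Krt6a, at 1 probe set of each. The test asks whether SJL minus Balb in EOM was the same at 12 months as at 10 months, and limma called 0 probe sets more positive and 2 more negative at 12 months (0.0161%). At an unadjusted p under 0.05 there were 485 (3.9%). Alox12e read 84.9 to 107 in SJL EOM and 95.1 to 113 in Balb EOM at 10 months, so the strains overlapped there. Its difference was -0.12 at 10 months and -5.06 at 12 months, a change of -4.94 (SE 0.68, adjusted p = 0.0114). Krt6a read 1459 to 2214 in SJL and 2788 to 4191 in Balb at 10 months without overlap, and its change was -3.08 (SE 0.49, adjusted p = 0.0411). At these probe sets the 12-month EOM arrays lay outside the 10-month ranges, lower in SJL and higher in Balb. The second Krt6a probe set changed by -4.13 and did not pass (adjusted p = 0.11). The second, brighter Alox12e probe set changed by -2.49 and did not pass either. There Balb replicate 1 at 12 months read 1559, inside the Balb range of 1495.5 to 3132 at 10 months. Leg of both strains was lower at 12 months too. Krt6a read 487 to 761 at 12 months and 1229 to 1981.5 at 10 months in SJL leg, and 456 to 856 at 12 months and 1329 to 1772.5 at 10 months in Balb leg. Alox12e read 33.8 to 56.6 at 12 months and 69.0 to 140.1 at 10 months in SJL leg, and 32.6 to 51.9 at 12 months and 78.8 to 105.5 at 10 months in Balb leg. Lower levels at 12 months were thus seen outside SJL EOM as well. The arrays of the 2 ages also differed as sets. Median intensities in EOM were 591 to 640 at 10 months and 459 to 562 at 12 months. In leg they were 566 to 651 and 426 to 453. For levels compared between the ages, age and array set cannot be told apart. Without the 4 arrays with high Actb ratios the test of the ages called 9 probe sets. Without SJL replicate 1 or SJL replicate 3, 0 probe sets passed this test, with 421 and 496 at an unadjusted p under 0.05, and without Balb replicate 2 it gave 1.

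The lower calls were also set beside the 10-month arrays, as a description only. Of the 29 lower probe sets that passed neither in EOM at 10 months nor in leg at 12 months, 21 (72.4%) had both 12-month SJL arrays below every 10-month SJL array. In Balb 16 (55.2%) had both 12-month arrays above every 10-month array, and 9 (31%) did both. The same shares over all probe sets were 31.6%, 14% and 0.475%. These probe sets were selected for passing on the 12-month arrays and for not passing in EOM at 10 months. Both choices favour such a pattern, so the shares over all probe sets are not a like baseline and no conclusion is drawn. Balb replicate 2 read above Balb replicate 1 at 24 of the 29 (82.8%), beside 45.2% of all probe sets.

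The strain difference at several epithelial genes was unequal in EOM and in leg muscle of the same age. A test of whether SJL minus Balb was equal in EOM and leg at 12 months gave 0 probe sets more positive and 8 more negative in EOM (0.0644%), with 555 at an unadjusted p under 0.05 (4.47%). They were both Krt6a probe sets (-5.43, SE 0.74, adjusted p = 0.00324, and -4.08, SE 0.49, adjusted p = 0.0017), Pglyrp1 (-5.16, SE 0.81, adjusted p = 0.0166), Alox12e (-5.09, SE 0.68, adjusted p = 0.00324), Alox15 (-3.16, SE 0.57, adjusted p = 0.0459), Asprv1 (-2.74, SE 0.45, adjusted p = 0.019), Ucp1 (-4.24, SE 0.69, adjusted p = 0.0187) and Krt4 (-2.20, SE 0.37, adjusted p = 0.0219). The second probe sets of Alox12e (-2.465, adjusted p = 0.678) and Pglyrp1 (-4.62, adjusted p = 0.119) did not pass this test. Krt6a read 487 to 761 in SJL leg and 456 to 856 in Balb leg, with full overlap. Pglyrp1 read 152 to 201 in SJL leg and 53.7 to 160 in Balb leg. The summed epithelial list read 8514 to 11945 in SJL leg and 8873.5 to 9773.5 in Balb leg, under every sum of EOM at 12 months. In EOM at 10 months the sums were 22481 to 34854 in SJL and 47232 to 71647 in Balb, again without overlap, with a median log2 difference of -0.48 over the list. In leg at 10 months they were 20653 to 33762 in SJL and 20975 to 24316 in Balb. Those leg sums lay above both SJL EOM sums at 12 months (19206 and 18633) and overlapped SJL EOM at 10 months. The sum is therefore not a measure of tissue that leg lacks. Without SJL replicate 1 or SJL replicate 3 this test gave 5 calls, and without Balb replicate 2 it gave 2.

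Ucp1, the uncoupling protein of brown fat, had strain differences of opposite sign in EOM and leg, and passed in leg only at 1 probe set. It read 151 and 55.9 in SJL EOM, against 270.5 and 721 in Balb EOM, a difference of -2.07 that did not pass (adjusted p = 0.144). In leg it read 175 to 313 in SJL and 36.1 to 46.0 in Balb, a difference of 2.17 that passed (adjusted p = 0.0235). A second Ucp1 probe set had -0.38 in EOM and -0.12 in leg, and neither passed. White fat genes held no call in EOM, as 0 of 19 passed by limma. Of these, 1 (Car3, a carbonic anhydrase of fat and slow muscle) had an unadjusted p under 0.05 and was higher, with a log2 difference of 1.00. Both SJL arrays lay below both Balb arrays at 14 of the 19 and above at 2, beside 25.6% and 17.8% of all probe sets. The median log2 difference of the fat list was -0.48, and its summed intensity was 86045 and 85036 in SJL, against 96610 and 103456 in Balb. A small protein of adipocytes, Adig, was lower and was picked once its values were known (-1.71, adjusted p = 0.0488), a call that was lost without each of the 4 arrays (adjusted p = 0.108 to 0.422).

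Several other lower genes came from no single list. Agtr2, the type 2 angiotensin receptor, read 39.8 and 35 in SJL, against 309 and 516 in Balb (-2.96, SE 0.57, adjusted p = 0.0185), and a second Agtr2 probe set, at 7.5 to 38.2, had 0.33. Tph1, the enzyme that starts serotonin synthesis outside the brain, read 29.5 and 46.7 in SJL, against 655 and 989 in Balb (-3.94, SE 0.75, adjusted p = 0.0166). Gbp2b, an interferon-inducible GTPase, read 10.8 and 25.5 in SJL, against 950 and 2022 in Balb (-5.39, SE 1.10, adjusted p = 0.0316). All 3 were near the floor of the array on the SJL side, and all 3 missed without each of the 4 arrays (adjusted p = 0.0596 to 0.304 for Agtr2, 0.074 to 0.27 for Tph1 and 0.103 to 0.381 for Gbp2b). Of the 42 lower probe sets 14 had both SJL intensities under 100, where the log2 difference depends on the 16 added to each value. With 1 added in its place Agtr2 also missed. Wnt1 (-1.85, adjusted p = 0.00363), a secreted signalling protein, and Gsto1 (-1.80, adjusted p = 0.0288), a glutathione transferase, were chosen after their values were seen. Wnt1 missed without SJL replicate 1 (adjusted p = 0.0601) or Balb replicate 1 (0.0596), and Gsto1 missed without SJL replicate 1 (0.198), SJL replicate 3 (0.131) or Balb replicate 2 (0.495).

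Genes of the slow fibre program leaned higher in SJL EOM, with 1 called probe set. Tnnt1, the slow skeletal troponin T, read 11439.5 and 8879 in SJL, against 1856 and 1872.5 in Balb. The log2 difference was 2.43 (SE 0.31, adjusted p = 0.000396). It passed without each of the 4 arrays and was also higher in EOM at 10 months (1.61) and in leg at 12 months (1.16). A second Tnnt1 probe set, much brighter, read 17746 and 30995 in SJL, against 23570 and 27560 in Balb (-0.12), so the probe sets of Tnnt1 did not give the same picture.

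Of the 13 slow-fibre genes measured at their brightest probe set 0 passed by limma, and 5 were higher and 0 lower at an unadjusted p under 0.05. Their median log2 difference was 1.06, beside -0.05 over all genes, and 5 of the 13 had a negative difference. Both SJL arrays lay above both Balb arrays at 8 and below at 2, beside 17.8% and 25.6% of all probe sets. Without the 4 arrays with high Actb ratios 7 of the 13 passed, all higher (Myh7, Myl2, Myl3, Tnnc1, Tnni1, Atp2a2 and Ankrd2), beside 0.97% of all genes higher and 1.39% lower. The median of the list was 0.75 in EOM at 10 months and 0.03 in leg at 12 months. The summed intensity was 211519 and 258198 in SJL EOM, against 151530 and 150296 in Balb EOM.

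Tnnc1, the slow troponin C, read 28228 and 31048 in SJL, against 4421 and 5533 in Balb (2.58, SE 0.69, adjusted p = 0.167). The slow myosin heavy chain Myh7 read 39361 and 42471 in SJL, against 10463 and 12718 in Balb (1.82, SE 0.54, adjusted p = 0.259). Myl2, the regulatory light chain of slow fibres, read 33851 and 30138 in SJL, against 8856 and 11053 in Balb (1.69, SE 0.48, adjusted p = 0.231). In each the strains stood apart by a wide margin on these 4 arrays, but the differences did not pass with the spread of all 22. Their adjusted p without the arrays with high ratios was 1.45e-06 for Tnnc1, 1.42e-05 for Myh7 and 0.000158 for Myl2. A second, dim Myh7 probe set had 0.29. In EOM at 10 months Myh7 (2.42, adjusted p = 0.0212) and Myl2 (2.51, adjusted p = 0.00512) passed, and Tnnc1 (2.75, adjusted p = 0.0541) did not. In leg Myh7 overlapped between the strains, at 29513 to 38540 in SJL and 30742 to 36923 in Balb, and so did Myl2. Tnnc1 did not overlap in leg, at 22842 to 30660 in SJL and 16562 to 22121 in Balb, but its difference of 0.43 did not pass (adjusted p = 1). Whether EOM and leg differ at these genes was tested with all others, and none of the 3 passed.

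**Figure D3:**
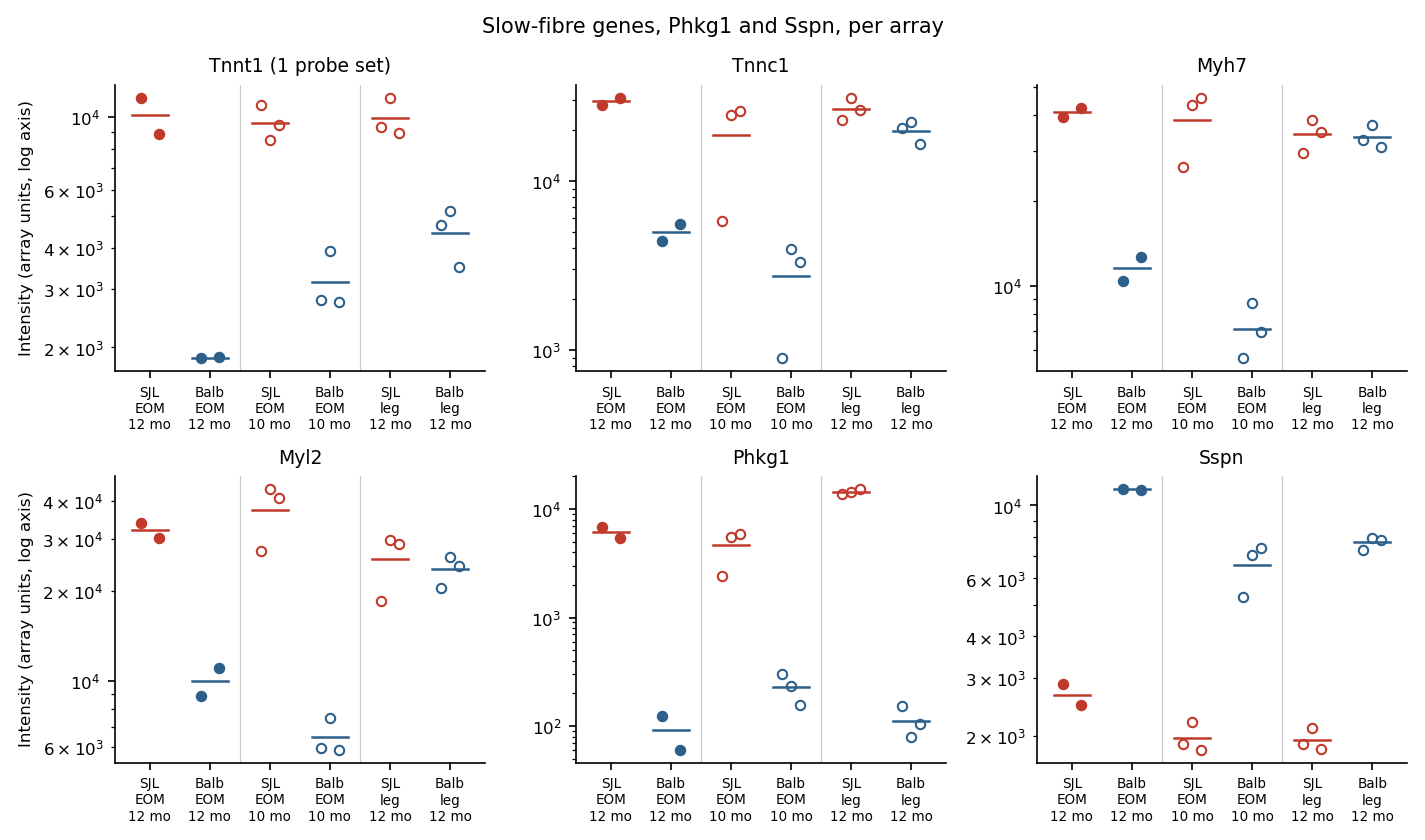
Intensity (log axis) of Tnnt1 (1 of its 2 probe sets), Tnnc1, Myh7, Myl2, Phkg1 and Sspn on each array of SJL and Balb EOM at 12 months (filled points), EOM at 10 months and leg at 12 months (open points), with a bar at each group's mean. For Tnnc1, Myh7 and Myl2 the SJL and Balb arrays lie far apart in EOM at 12 months and close together in leg, while for Phkg1 and Sspn they lie far apart in both muscles.

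Fast-fibre genes held no call. Of 17 measured, 0 passed by limma and 0 had an unadjusted p under 0.05, with a median of -0.06. Atp2a1, the calcium pump of fast fibres, read 8335 and 3836 in SJL, against 22326 and 14853 in Balb (-1.68, adjusted p = 0.937), and without the arrays with high ratios it was lower (adjusted p = 0.0334). Among genes of immature or regenerating fibres, 0 of 32 passed by limma at the probe set used for the list, and 0 had an unadjusted p under 0.05. Myl4, an embryonic and atrial myosin light chain, was higher at another probe set, with 4858 and 3392 in SJL and 726 and 1363 in Balb (2.01, SE 0.35, adjusted p = 0.00677). It was higher in leg as well (2.71). Its other probe set had 0.66 (adjusted p = 0.873), and the call was lost without SJL replicate 1 (adjusted p = 0.146) or Balb replicate 1 (0.179).

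A few genes known from nerve had higher values, although the nerve list as a whole did not lean higher. Kcna1, a potassium channel of axons, read 537 and 638.5 in SJL, against 201 and 88.0 in Balb (2.00, SE 0.43, adjusted p = 0.0431). Ndrg4, a cytoplasmic protein abundant in nerve and heart, read 17546 and 16328.5 in SJL, against 4882 and 4425 in Balb (1.86, SE 0.32, adjusted p = 0.00677), and a dimmer probe set had 1.02. In leg Ndrg4 read 875 to 974 in SJL and 705 to 1319 in Balb. Nefm, the medium neurofilament of axons, read 1091 and 704 in SJL, against 102 and 128 in Balb (2.77, SE 0.62), which just missed (adjusted p = 0.061). Of 15 nerve and Schwann cell genes 0 passed by limma, and 2 had a p below 0.05 before adjustment, Nefm higher and the brighter Mag probe set lower. The list's median was -0.06, with 7 genes positive and 8 negative, and Kcna1 and Ndrg4 are not on it. On the 18 arrays without high Actb ratios Kcna1 just missed by limma (adjusted p = 0.051). The Ndrg4 call was lost without each of the 4 arrays (adjusted p = 0.0596 to 0.128), and Kcna1 passed only without Balb replicate 1 (0.0312) among them, with 0.164 to 0.516 without the others.

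Part of the strain difference in EOM was shared with leg muscle. Of the 57 probe sets, 21 (36.84%) passed in the same direction in leg at 12 months, 8 higher and 13 lower, and they were 30% of the 70 called there (0.564% of all). In EOM at 10 months 14 (24.56%) passed, 7 higher and 7 lower, which was 70% of the 20 called there (0.161%; 0.0886% higher and 0.0725% lower). At an unadjusted p under 0.05 there were 6.4% of probe sets in leg and 5.23% in EOM at 10 months, and the leg calls were 0.274% higher and 0.29% lower. These comparisons share no arrays with each other but share a fit. Differences failing one test and passing another were not thereby shown to be unequal, and the tests of inequality are those given above.

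**Figure D4:**
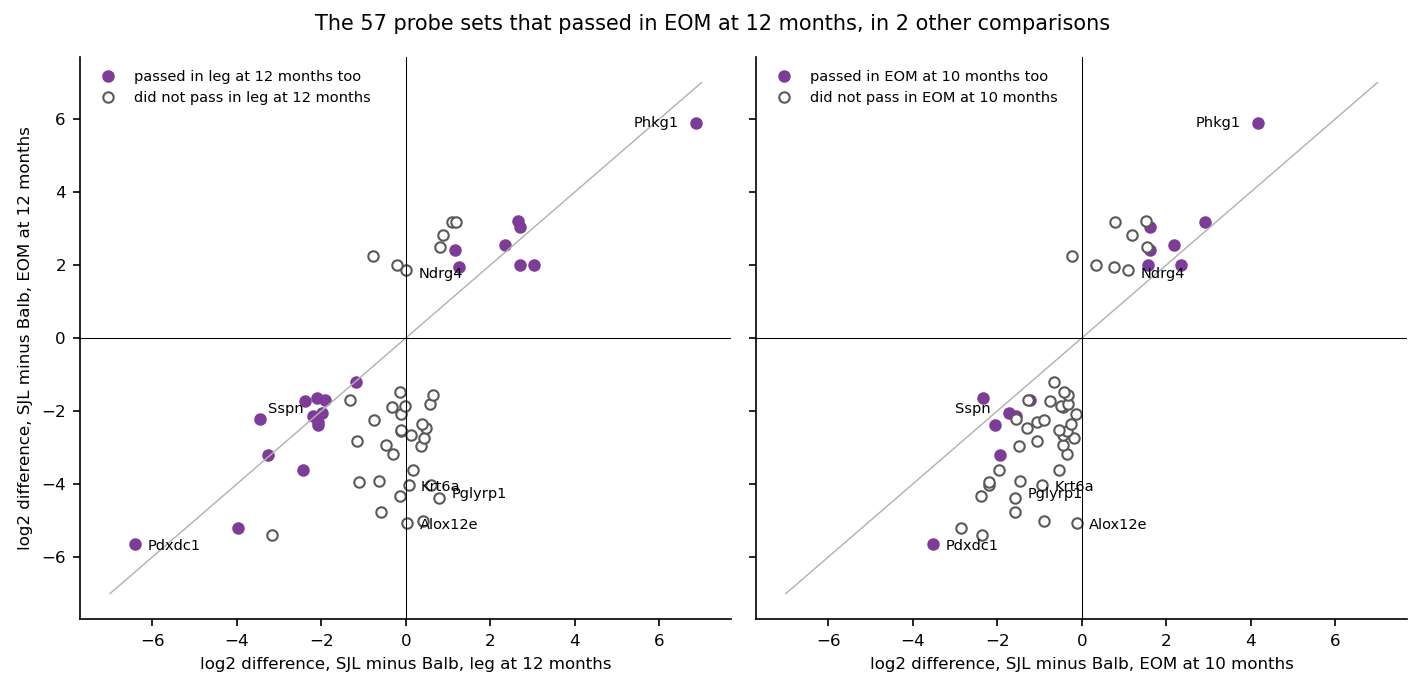
The log2 difference, SJL minus Balb, in EOM at 12 months (vertical axes) of the 57 probe sets that passed there, against the same difference in leg at 12 months (left) and in EOM at 10 months (right), with a line of equality. Filled points passed in the other comparison too: 21 in leg and 14 in EOM at 10 months; Krt6a, Pglyrp1 and Alox12e lie near 0 in leg.

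Phkg1, the catalytic subunit of the phosphorylase kinase of muscle, which starts glycogen breakdown, had the widest strain difference. It read 6893 and 5400.5 in SJL EOM, against 124 and 60.5 in Balb EOM (5.89, SE 0.44, adjusted p = 1.03e-06). In leg it read 13724 to 15295 in SJL and 78.7 to 151.5 in Balb. It was the only gene of 26 in glycogen and glycolysis that passed, and the median of that list was -0.10.

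The promoters of Phkg1 and Tnnt1 are shown because these were the muscle genes higher in SJL EOM under all 18 alternatives tried, Tnnt1 at 1 of its 2 probe sets. They are RefSeq sequences of the reference mouse genome (GRCm38.p6), not of SJL or Balb, from 250 bases before to 50 after the start, both on the minus strand, Tnnt1 at chr7:4515926-4516225 and Phkg1 at chr5:129879039-129879338. Capitals mark TATAAA, an element found before the start of many genes. They also mark CANNTG, the letters that myogenic factors can bind, and both were searched on both strands.
Tnnt1: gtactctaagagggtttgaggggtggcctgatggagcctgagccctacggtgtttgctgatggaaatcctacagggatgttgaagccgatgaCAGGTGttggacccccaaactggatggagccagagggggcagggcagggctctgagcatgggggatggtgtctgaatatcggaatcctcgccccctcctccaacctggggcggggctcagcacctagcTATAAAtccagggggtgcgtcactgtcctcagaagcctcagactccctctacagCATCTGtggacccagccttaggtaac
Phkg1: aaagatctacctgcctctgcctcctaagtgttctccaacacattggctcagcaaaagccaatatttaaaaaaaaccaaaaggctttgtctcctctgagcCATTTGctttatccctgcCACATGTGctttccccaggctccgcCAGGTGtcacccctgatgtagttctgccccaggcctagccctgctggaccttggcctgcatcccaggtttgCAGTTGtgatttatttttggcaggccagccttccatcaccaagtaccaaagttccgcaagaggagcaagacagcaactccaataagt
Tnnt1 held a TATAAA 30 bases before its start and 2 CANNTG. Phkg1 held no TATAAA and 5 CANNTG, of which those at 133 and 131 bases before the start overlap. Over 32851 promoter windows of this length, 13.6% held TATAAA and 72.3% held CANNTG.

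Sspn, a membrane protein of the dystrophin complex, read 2860 and 2469 in SJL EOM, against 11217 and 11151 in Balb EOM (-2.07, SE 0.29, adjusted p = 0.00123). Of 21 genes of dysferlin's partners and the sarcolemma it alone passed. Sgcd, a sarcoglycan, read 169.6 and 71.7 in SJL, against 341 and 323 in Balb (-1.45, adjusted p = 0.276), and Capn3, a muscle protease bound to dysferlin, read 6905 and 6285 in SJL, against 4363 and 3564 in Balb (0.74, adjusted p = 0.649). Neither passed.

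Genes of the major histocompatibility complex differed at single members. H2-Ea, the alpha chain of a class II molecule, read 13.1 and 61.8 in SJL, against 1523 and 1950 in Balb (-5.19, SE 0.72, adjusted p = 0.000911), and it was lower in leg too (-3.98). H2-K1, a class I heavy chain, was higher at 1 probe set, with 6458 and 4420 in SJL and 735 and 1105 in Balb (2.55, SE 0.28, adjusted p = 8.24e-05). Its other probe sets had 0.12 and 0.16. Of 22 genes of antigen presentation H2-Ea was the only one called, and the list's median was -0.08.

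Pdxdc1, a decarboxylase-like protein, went both ways. A first probe set read 89.5 and 92.4 in SJL, against 4493 and 6294 in Balb (-5.64, SE 0.56, adjusted p = 2.01e-05). A second one read 2188 and 1819 in SJL, against 204 and 203 in Balb (3.19, SE 0.47, adjusted p = 0.00179), and the third had 1.82 (adjusted p = 0.276). A level of Pdxdc1 can therefore not be given for either strain. Among other genes with more than 1 probe set, Pla2g12a, a secreted phospholipase, was lower at 1 (-3.19, adjusted p = 0.000535) and not at the other (-0.78). Rgs5, a signalling regulator of pericytes, was lower at 1 (-2.23, adjusted p = 0.0185) and not at the other (-0.30), and that call was lost without SJL replicate 1 (adjusted p = 0.355), Balb replicate 1 (0.138) or Balb replicate 2 (0.202).

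Several further genes shared with leg were measured by single probe sets. Thumpd1, a factor of tRNA acetylation, read 3515 and 2729 in SJL, against 327 and 406 in Balb (3.03, SE 0.28, adjusted p = 1.18e-05). Mrps12, a mitochondrial ribosomal protein, was higher by 1.95 (adjusted p = 0.00588), and the call was lost without SJL replicate 3 (adjusted p = 0.0784), Balb replicate 1 (0.074) or Balb replicate 2 (0.0613). Abcd3, a transporter of the peroxisome membrane, was lower by -2.14 (adjusted p = 0.000452) and Gcsh, a carrier protein of glycine cleavage, by -1.71 (adjusted p = 0.000535). Tbc1d1, a regulator of glucose transporter traffic in which SJL is known to carry a deletion, read 348 and 384 in SJL, against 1275.5 and 1238.5 in Balb (-1.74, adjusted p = 0.0129), and missed without each of the 4 arrays (0.0745 to 0.139). Abcd3, Gcsh and Tbc1d1 were chosen after their values were seen. D2hgdh, an enzyme that clears hydroxyglutarate, was not shared with leg. It was higher at 1 of its 2 probe sets in EOM (2.82, adjusted p = 0.0388), while leg had 0.87 (adjusted p = 0.91). The EOM call missed without each of the 4 arrays (0.143 to 0.381).

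The lists of immune cells and of interferon response held no call in EOM, although Gbp2b, which is on neither, passed. Of 35 macrophage and myeloid genes 0 passed by limma and 0 had an unadjusted p under 0.05, with a median of -0.13. Lyz2, the lysozyme of macrophages, read 4662 and 3396 in SJL EOM, against 6500 and 8050 in Balb EOM (-0.86, adjusted p = 0.789), and without the arrays with high ratios it was lower (adjusted p = 0.0272). The summed intensity of the list was 31611 and 32160 in SJL EOM, against 34618 and 41571 in Balb EOM. In leg the list's median was 0.72. By limma 0 of 23 lymphocyte genes passed, with 1 at an unadjusted p under 0.05, and 0 of 23 interferon genes, with 0 at that level. Cd55, an inhibitor of complement on cell surfaces, read 394 and 366 in SJL EOM, against 829.5 and 665 in Balb EOM (-0.94, adjusted p = 0.734), which did not pass. Kcnab1, a potassium channel subunit, read 40.6 and 41.8 in SJL and 40.6 and 41.3 in Balb, a difference of 0.01. A second Kcnab1 probe set, also dim, had -1.81 and did not pass (adjusted p = 0.347). Kcnab1 was higher in SJL leg (3.73, adjusted p = 0.000556).

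Among all 27 lists, 6 held a called gene at its brightest probe set. Beside epithelium these were 1 gene each, namely Phkg1, Sspn, H2-Ea, Rgs5 and Aldh3a1. The lists of oxidative phosphorylation (34 genes, median -0.01), extracellular matrix (45 genes, median -0.05), fatty acid oxidation (23 genes, median 0.07) and lysosomes (22 genes, median -0.09) held 0 calls by limma. In the same order they had 0, 6, 1 and 1 genes at an unadjusted p under 0.05.

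**Figure D5:**
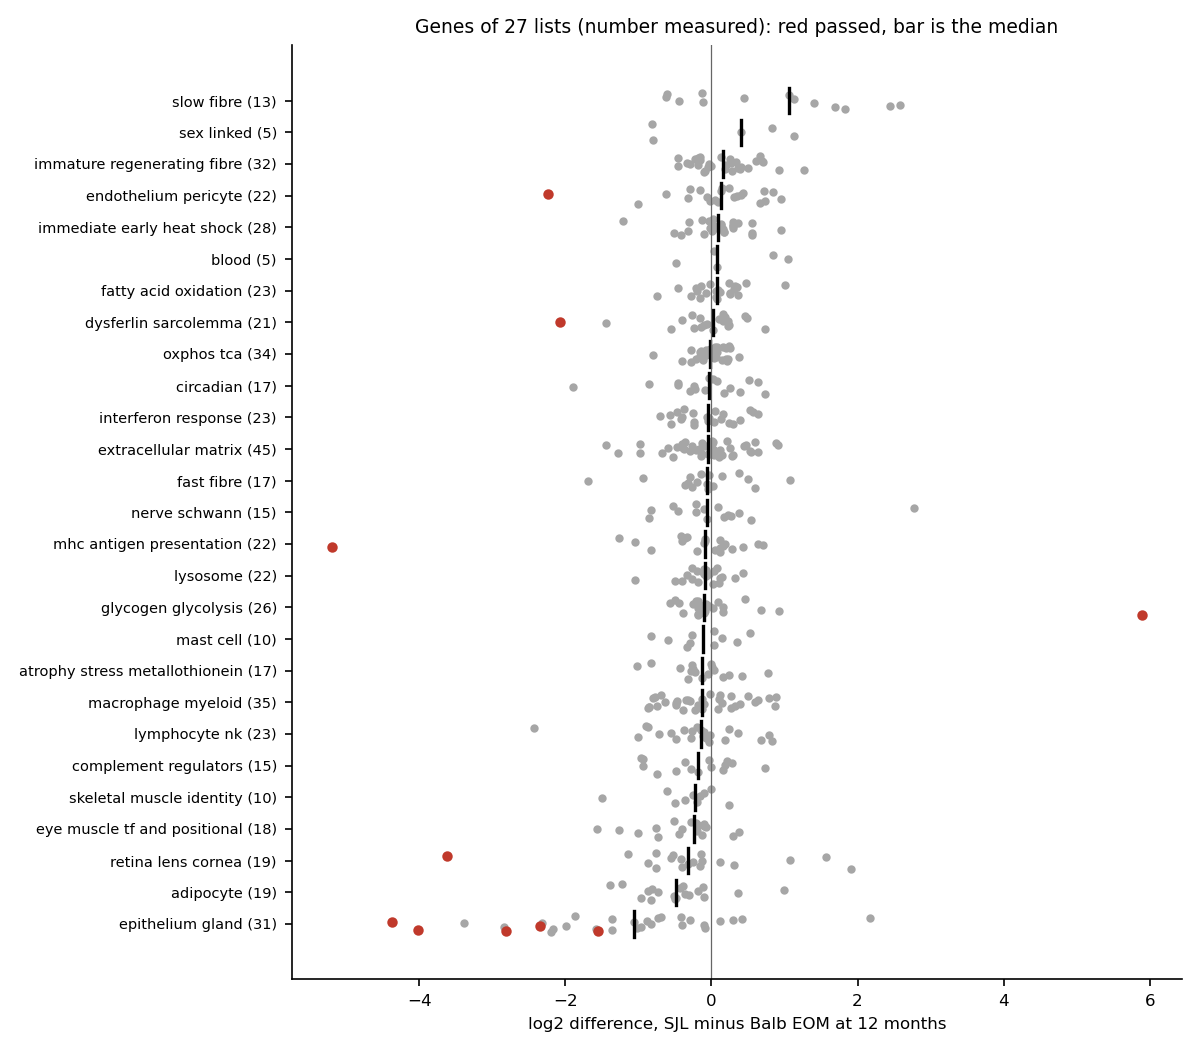
Log2 difference, SJL minus Balb, in EOM at 12 months (horizontal axis) of each gene of 27 lists, 1 row per list with the number of genes measured, and a bar at the list's median. Red points passed the test; the epithelium and gland row has 5 of them and the lowest median (-1.05), and the slow-fibre row has the highest (1.06) and none.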

How the data were processed

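Gene expression was measured on Affymetrix arrays. Per the labels the standard Affymetrix protocol was used, and the deposited values are linear intensities, 1 per probe set and array. The 2% trimmed mean lay near 1501 on every array. The software that made them is not given in the sources used here. Values were taken as log2(intensity + 16) of the deposited intensities with no further normalization. From 12488 probe sets 66 controls were left out. Of the 12422 tested, 10833 carried 1 gene symbol, 396 several and 1193 none, and 10817 matched a gene table of assembly GRCm38.p6.

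Group means (8 groups, 22 arrays) were estimated in R 4.3.3 by limma 3.58.1 (empirical Bayes with an intensity trend, 14 residual degrees of freedom). Tests were two-sided, adjusted by Benjamini-Hochberg over all probe sets. No filter on low values was used. The fit was tested on simulated data. A gene in a list was taken at its probe set with the highest mean over all arrays, and its call there can differ from that of another probe set. Tables and figures were made with Python 3.11.15 and matplotlib 3.10.9. The comparison, members and lists were chosen with earlier results of these data known.

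Genes were named by rule: the 15 largest called changes each way whose arrays did not overlap, the 3 members of each list with the smallest p, Cd55, Sspn, H2-Ea, Myh7, Phkg1 and Kcnab1, and up to 5 each way from the tests of ages and muscles. Others are said to be chosen after their values were seen, and slow-fibre genes that passed on 18 arrays are named to complete a count. Arrays with one replicate number deviated together in every pair of 10-month groups (r 0.154 to 0.662) and not at 12 months (-0.049 to 0.0055). The labels state no pairing, and the 10-month values cannot show one. There the replicate 1 arrays all had high Actb ratios, and deviations were taken from group means. Alternatives covered the replicate block, filters, pseudocounts 1 and 64, normalization, the arrays that give the spread, the variance model and leaving out each of the 4 arrays. No detection calls were used, and the number of arrays limits the precision.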

Additional observations from a re-analysis of the deposited data

Results flagged for a closer look

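The strain difference in EOM changed with age, by limma's test of the change itself, at 2 probe sets. Alox12e differed by -4.94 more at 12 than at 10 months, and Krt6a by -3.08 more. The second probe set of each gene did not pass this test. The strain difference at 12 months was unequal in EOM and leg, by the same kind of test, at 8 probe sets. EOM minus leg was -5.43 and -4.08 for the 2 Krt6a probe sets, -5.16 for Pglyrp1, -5.09 for Alox12e, -4.24 for Ucp1, -3.16 for Alox15, -2.74 for Asprv1 and -2.20 for Krt4. Of these, Alox12e, Alox15 and the dimmer Krt6a probe set read about 100 or less on both 12-month SJL EOM arrays. The part of epithelium taken along with the muscle in these differences was not tested. The summed epithelial list read 19206 and 18633 in SJL EOM, against 53732 and 69891 in Balb EOM. That list itself includes Krt6a, Pglyrp1, Asprv1 and Krt4, so its sum is not a measure separate from them.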

How the results depend on the processing

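The 57 calls for strain in EOM at 12 months became 248 on 18 arrays (4 with high Actb ratios left out), with 56 of the 57 kept, 251 on the 12-month arrays, 19 on the EOM arrays, 103 on the 4 arrays compared and 185 with array weights. Leaving out 1 of the 4 arrays gave 24 to 37. The 18 arrays with quantile normalization, chosen after seeing the data, gave 214. Shares of higher calls moved from 26.3% to 39.6% with median centring (21 higher, 32 lower) and 37.5% with quantile normalization (18 and 30). The 2 calls of the age test became 9 on 18 arrays, 9 on these with quantile normalization, 5 with array weights, 1 with the 50% lowest left out, with quantile normalization, with median centring or with no intensity trend, and 0 with the 30% lowest left out or on EOM arrays (257 and 420 at an unadjusted p under 0.05). Leaving out an array gave 0 to 2. The 8 calls of the muscle test became 57 on 18 arrays, with array weights and on 18 arrays with quantile normalization, 50 on the 12-month arrays, 14 with pseudocount 64, 5 and 4 with the 30% and 50% lowest left out, and 2 to 10 without 1 array.

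With the replicate block there were 59 calls (18 higher, 41 lower), of which 41 were among the 57, 2 for the age test and 11 for the muscle test. Same-numbered deviations correlated at -0.049 to 0.0055 at 12 months, where the 2 groups share 1 number, and at 0.154 to 0.662 at 10 months. Every replicate 1 array at 10 months had a high Actb ratio, and deviations were taken from group means. A deviation common to the replicate 1 arrays also moves the other replicates together, so the 10-month values cannot show a pairing. The block changed no count by over 1.5 times. The block turned Kcnab1 to -0.29. Genes that did not pass turned sign when an array was left out, with ranges of -0.053 to 1.38 (Myl4, second probe set), -0.0089 to 0.021 (Kcnab1), -2.04 to 0.44 (Cox5a), -1.47 to 0.0644 (Igtp), -0.00855 to 0.44 (Ndufs1) and -1.96 to 0.34 (Sry). The causes were not tested. Of 57 calls, 10 probe sets of 9 genes passed under all 18 alternatives: Pdxdc1 (both), Pglyrp1, Krt6a, Abcd3, Sspn, Tnnt1, H2-K1, Thumpd1 and Phkg1.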
